A study of Mus musculus with 12 samples.

Results

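Pancreatic islets that express transgenic human islet amyloid polypeptide (hIAPP) and lack the protease BACE2 were compared with islets that have the same transgene and BACE2. The comparison took the 3 arrays of hIAPP/BACE2-KO mice against the 3 arrays of hIAPP mice, 6 of the 12 arrays of the study, and covered all genes with a probe set of 1 gene symbol. The remaining arrays were 3 of wild type (WT) islets and 3 of BACE2-KO islets without the transgene. All mice were 12 weeks old and ate standard chow, and all 4 groups bear the strain name B6;129P2-Bace2tm1Bdes/J in the labels. The promoter that drives the transgene is not given in the sources used here, nor whether an array holds islets of a single mouse or a pool. The p-values therefore speak only for the variation among these arrays, which may be technical. Levels are log2 intensities, so that a difference of 1 is a doubling.

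Human islet amyloid polypeptide is released by beta cells together with insulin, and unlike the mouse peptide it can aggregate into the amyloid found in islets in type 2 diabetes. BACE2 is a membrane-bound aspartyl protease related to the beta-secretase BACE1. It is abundant in beta cells, where it cleaves the membrane protein Tmem27 and other substrates. Cells under stress in the endoplasmic reticulum, or short of amino acids, raise the transcription factor ATF4, which turns on genes for amino acid synthesis and uptake.

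The arrays carried the transcripts of islets in both groups. Over the 6 arrays Ins2, an insulin gene, ran from 13.93 to 14.01, Gcg, which encodes glucagon, from 13.07 to 13.22, and Sst, which encodes somatostatin, from 12.38 to 12.72. Cpa1 and Cela1, enzymes of the acinar cells that make digestive juice, were also high, at 9.60 to 10.62 and 10.62 to 11.74. Xist lay between 3.23 and 3.91 and the Y-linked Eif2s3y between 8.08 and 8.68 on all 12 arrays. Bace2 itself stood at 10.89, 11.03 and 11.09 on the hIAPP arrays and at 10.65, 10.95 and 10.94 on the hIAPP/BACE2-KO arrays, and these values overlapped. The Bace2 difference was -0.16 (SE 0.10, limma adjusted p = 0.74), and its other probe sets gave -0.08 and -0.27. The position of its probes relative to the deletion is unknown here. This transcript therefore does not check the genotype, and the groups rest on the labels.

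Some arrays stood apart. Replicate 2 of hIAPP/BACE2-KO had 18 genes more than 2 log2 units above every other array, against 0 or 1 such gene on each of the other 11. They were chosen after their values were seen and include Sprr2a1, a squamous epithelial gene (9.85, others 3.99 to 4.72), the antimicrobial lectin genes Reg3a (8.76, others 3.26 to 4.64) and Reg3b (11.80, others 3.69 to 9.17), and Timp1, an inhibitor of matrix proteases (10.54, others 5.58 to 8.29). Replicate 3 of hIAPP had a mean of 5.57 over the lymphocyte markers, against 4.22 and 4.24 in its group, with the B cell gene Ms4a1 at 6.73 against 3.19 and 3.09. Replicate 1 of hIAPP deviated most from its group means among the 12 arrays (SD over genes 0.24). Its mean over cytokine, chemokine and NF-kB genes was 6.75, against 5.65 and 5.69 in its group. Results are therefore also given without these arrays.

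Few genes passed the test. Of 17097 genes with such a probe set, 12825 passed the filter on mean level and were tested, and 4272 did not. Of those tested, 13 (0.101%) were called at an adjusted p under 0.05 by limma, 10 higher (0.078%) and 3 lower (0.0234%) in islets without BACE2. At an unadjusted p under 0.05 there were 1073 genes (8.37%), of which 645 (5.03%) were higher and 428 (3.34%) lower. The arrays of both groups did not overlap in 1427 genes (11.1%), 841 of them higher (6.56%) and 586 lower (4.57%). All 13 called genes were among them. Most genes named below were picked for a small p, so lack of overlap in them is no added support. A difference above 1 in size was seen in 79 genes, 54 higher and 25 lower, and 11 of these were called. The median over all genes was 0.03, and 57% lay above 0. The split of 10 higher and 3 lower calls depended on the scaling, since arrays centred on their medians gave 12 higher and 12 lower, and a further quantile normalization 6 higher and 4 lower. Without hIAPP/BACE2-KO replicate 2 the count was 4 (1 higher, 3 lower), and without replicates 1 and 3 of that group 5 and 8. Without hIAPP replicates 1, 2 and 3 the count was 17, 6 and 7.

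**Figure D1:**
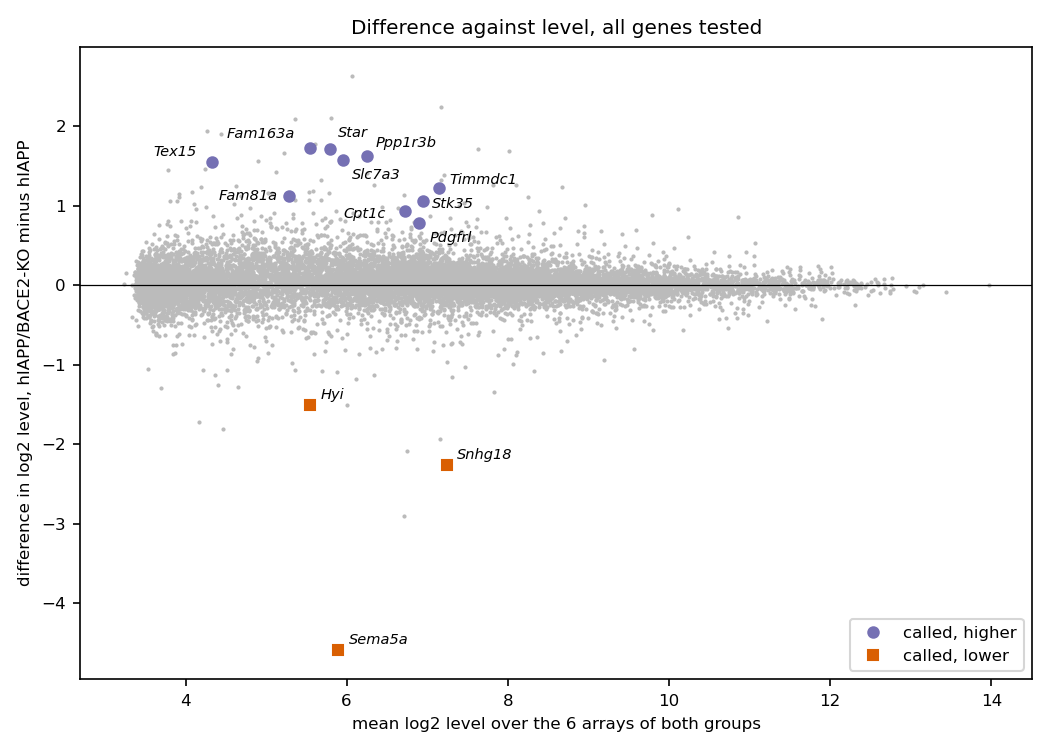
Each point is a gene tested, with its mean log2 level over the 6 arrays on the x axis and the difference in log2 level, hIAPP/BACE2-KO minus hIAPP, on the y axis; circles mark genes called higher and squares genes called lower. Sema5a, at -4.59, lies below every other gene, and several grey points beyond 1 in size were not called.

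The largest difference was in Sema5a, a transmembrane semaphorin known from axon guidance. Its level was 8.61, 8.49 and 7.47 on the hIAPP arrays and 3.70, 3.55 and 3.55 on the hIAPP/BACE2-KO arrays. The groups lay far apart, and the latter values are close to the level of 3.43 under which genes were left out, so the size of the drop is not resolved. Sema5a fell by 4.59 (SE 0.32, adjusted p = 4.36e-05). On its other probe sets the difference was -4.77, -1.13 and 0.25, the last with both means at or below 3.24, and it was -2.56 with all probe sets averaged. In WT islets the level was 3.5, 3.62 and 3.43, and in BACE2-KO islets without the transgene 3.62, 3.69 and 4.79. High Sema5a was thus seen on the 3 hIAPP arrays alone among the 12.

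Snhg18, a host gene of a small nucleolar RNA that makes no known protein, followed the same pattern. Its level was 8.88, 8.51 and 7.72 on the hIAPP arrays and 5.97, 6.11 and 6.25 on the hIAPP/BACE2-KO arrays, with no overlap. It fell by 2.26 (SE 0.23, adjusted p = 0.00109), while WT arrays read 6.12, 6.33 and 6.23 and BACE2-KO arrays 6.22, 6.09 and 6.52. Replicate 3 was the lowest hIAPP array for Snhg18 as well as for Sema5a. Sema5a and Snhg18 lie head to head on chromosome 15 and are read in opposite directions. In RefSeq (GRCm38.p6) their start sites, at 32244813 and 32244662, are 151 bases apart, and their promoter windows share 250 of 300 bases. The window of Sema5a (250 bases before its start to 50 after, chr15:32244563-32244862, plus strand) is shown because both called genes start in it; capitals mark the stretch from the Snhg18 start to the Sema5a start.
Sema5a: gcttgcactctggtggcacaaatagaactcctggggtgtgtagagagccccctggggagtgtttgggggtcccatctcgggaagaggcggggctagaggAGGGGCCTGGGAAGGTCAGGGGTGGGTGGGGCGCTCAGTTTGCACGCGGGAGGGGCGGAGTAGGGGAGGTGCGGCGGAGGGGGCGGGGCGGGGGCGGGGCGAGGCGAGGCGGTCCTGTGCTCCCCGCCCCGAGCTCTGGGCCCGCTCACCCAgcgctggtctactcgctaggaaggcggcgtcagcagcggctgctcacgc
That stretch of 152 bases is 78.3% G or C and holds 15 CpG. Of the tested genes around the pair (10 on each side of Sema5a, less Snhg18, which leaves 19) none was called by limma and 2 had an unadjusted p under 0.05, against 8.37% of all genes, with differences from -0.36 to 0.36 and a median of 0.02.

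Hyi, a putative hydroxypyruvate isomerase, was the third gene called lower. It read 6.11, 6.38 and 6.39 on the hIAPP arrays and 4.85, 4.67 and 4.85 on the hIAPP/BACE2-KO arrays. The groups did not overlap, and Hyi fell by 1.5 (SE 0.14, adjusted p = 0.000757). Its level in WT (5.85, 5.71 and 5.70) lay between those of both transgenic groups. Sema5a and Hyi kept their call in each of the 23 settings in which they were tested. The filter at the 50th percentile left both genes out. Snhg18 was tested in 24 settings and kept its call in 23, with an adjusted p of 0.0546 in a fit of only these 6 arrays.

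Timmdc1, which helps to assemble complex I of the mitochondrial respiratory chain, led the genes called higher by its adjusted p. Its level was 6.31, 6.68 and 6.62 on the hIAPP arrays and 7.59, 7.76 and 7.93 on the hIAPP/BACE2-KO arrays. All 3 of the latter lay above the former, and the rise was 1.22 (SE 0.12, adjusted p = 0.00109). Its call was lost only in the fit of these 6 arrays (adjusted p = 0.0619). Timmdc1 and Bace2 both lie on chromosome 16. Of the 20 tested neighbours of Timmdc1 and the 32 of Bace2, none was called by limma, while 0 and 3 had an unadjusted p under 0.05, against 8.37% of all genes. None of the 20 neighbours of Hyi on chromosome 4 was called either, and 4 of the 20, 2 higher and 2 lower, had an unadjusted p under 0.05, again against 8.37% of all genes.

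Star, Ppp1r3b and Cpt1c were called higher. Star encodes the protein that brings cholesterol to the inner mitochondrial membrane for steroid synthesis. It read 5, 4.99 and 4.81 with BACE2 and 6.41, 7.11 and 6.41 without it, a rise of 1.71 (SE 0.23, adjusted p = 0.0146). Its other probe sets gave 1.52 and 0.47. Ppp1r3b, which brings protein phosphatase 1 to glycogen and so promotes glycogen storage, read 5.62, 5.25 and 5.45 against 7.09, 7.08 and 7.04. The values without BACE2 hardly differed among themselves, and the rise was 1.63 (SE 0.24, adjusted p = 0.0186). Cpt1c, the carnitine palmitoyltransferase of neurons, read 5.94, 6.27 and 6.59 against 7.07, 7.22 and 7.29, a rise of 0.93 (SE 0.15, adjusted p = 0.0403). Star lost its call without hIAPP replicate 2, hIAPP replicate 3 or hIAPP/BACE2-KO replicate 2 (1.48 to 1.83 over the fits that each left out an array, adjusted p up to 0.0668), and also with the probe set of largest variance (1.52, adjusted p = 0.0873). Ppp1r3b lost it without hIAPP replicate 2 or 3 or any of the hIAPP/BACE2-KO arrays (1.54 to 1.72, adjusted p up to 0.107). Of 12 fits that each left out an array, 1, the fit without hIAPP replicate 3, called Cpt1c (0.76 to 1.09, adjusted p up to 0.167).

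Slc7a3, a carrier of arginine and lysine into cells, read 5.21, 4.88 and 5.42 on the hIAPP arrays and 6.65, 6.83 and 6.75 on the hIAPP/BACE2-KO arrays. The groups did not overlap, and the rise was 1.57 (SE 0.24, adjusted p = 0.0232). It lost its call without any of the 6 arrays compared (1.43 to 1.70, adjusted p up to 0.117). Tex15, known from male meiosis, read 3.26, 3.81 and 3.59 against 5.28, 4.87 and 5.16, a rise of 1.55 (SE 0.25, adjusted p = 0.0403) from a level near the filter, so that its size is not resolved. Of the fits that left out an array, those without BACE2-KO replicate 2 or 3 called Tex15 (1.40 to 1.68 over all 12, adjusted p up to 0.142).

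The kinase gene Stk35 read 6.26, 6.74 and 6.27 against 7.40, 7.49 and 7.54 and rose by 1.05 (SE 0.15, adjusted p = 0.0186). Pdgfrl, which resembles the ligand-binding part of a growth factor receptor, read 6.49, 6.43 and 6.62 against 7.30, 7.24 and 7.33. Its groups were tight and apart, and it rose by 0.78 (SE 0.11, adjusted p = 0.0146). Fam81a rose by 1.12 (SE 0.16, adjusted p = 0.0158), from 4.84, 4.63 and 4.70 to 5.83, 5.79 and 5.92. Fam163a rose by 1.72 (SE 0.27, adjusted p = 0.04), from 4.30, 4.86 and 4.90 to 6.77, 5.99 and 6.46. In each of these genes every array without BACE2 was above every array with it, against 6.56% of all genes. The groups were apart in all 13 called genes, which were picked by their p, so this adds no support. Without any 1 of the hIAPP/BACE2-KO arrays, Stk35, Pdgfrl, Fam81a and Fam163a all lost their call. So did Pdgfrl without hIAPP replicate 2, Fam81a without hIAPP replicate 2 or 3, Stk35 without hIAPP replicate 1 or 3, and Fam163a in every left-out fit but those without WT replicate 1 or 3. Their differences there ran from 0.74 to 0.83 for Pdgfrl, 1.08 to 1.18 for Fam81a, 0.97 to 1.21 for Stk35 and 1.53 to 1.93 for Fam163a, with adjusted p up to 0.0764, 0.09, 0.0943 and 0.138.

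Some calls also ended when the processing was changed with all arrays kept. Stk35, Fam163a, Tex15 and Cpt1c lost theirs with a further quantile normalization, Fam163a and Tex15 with array weights or without a trend in the variance, and Cpt1c with the acinar marker mean as a covariate. A fit of only the 6 arrays compared called 3 genes, Sema5a, Hyi and Ppp1r3b, all of them among the 13.

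**Figure D2:**
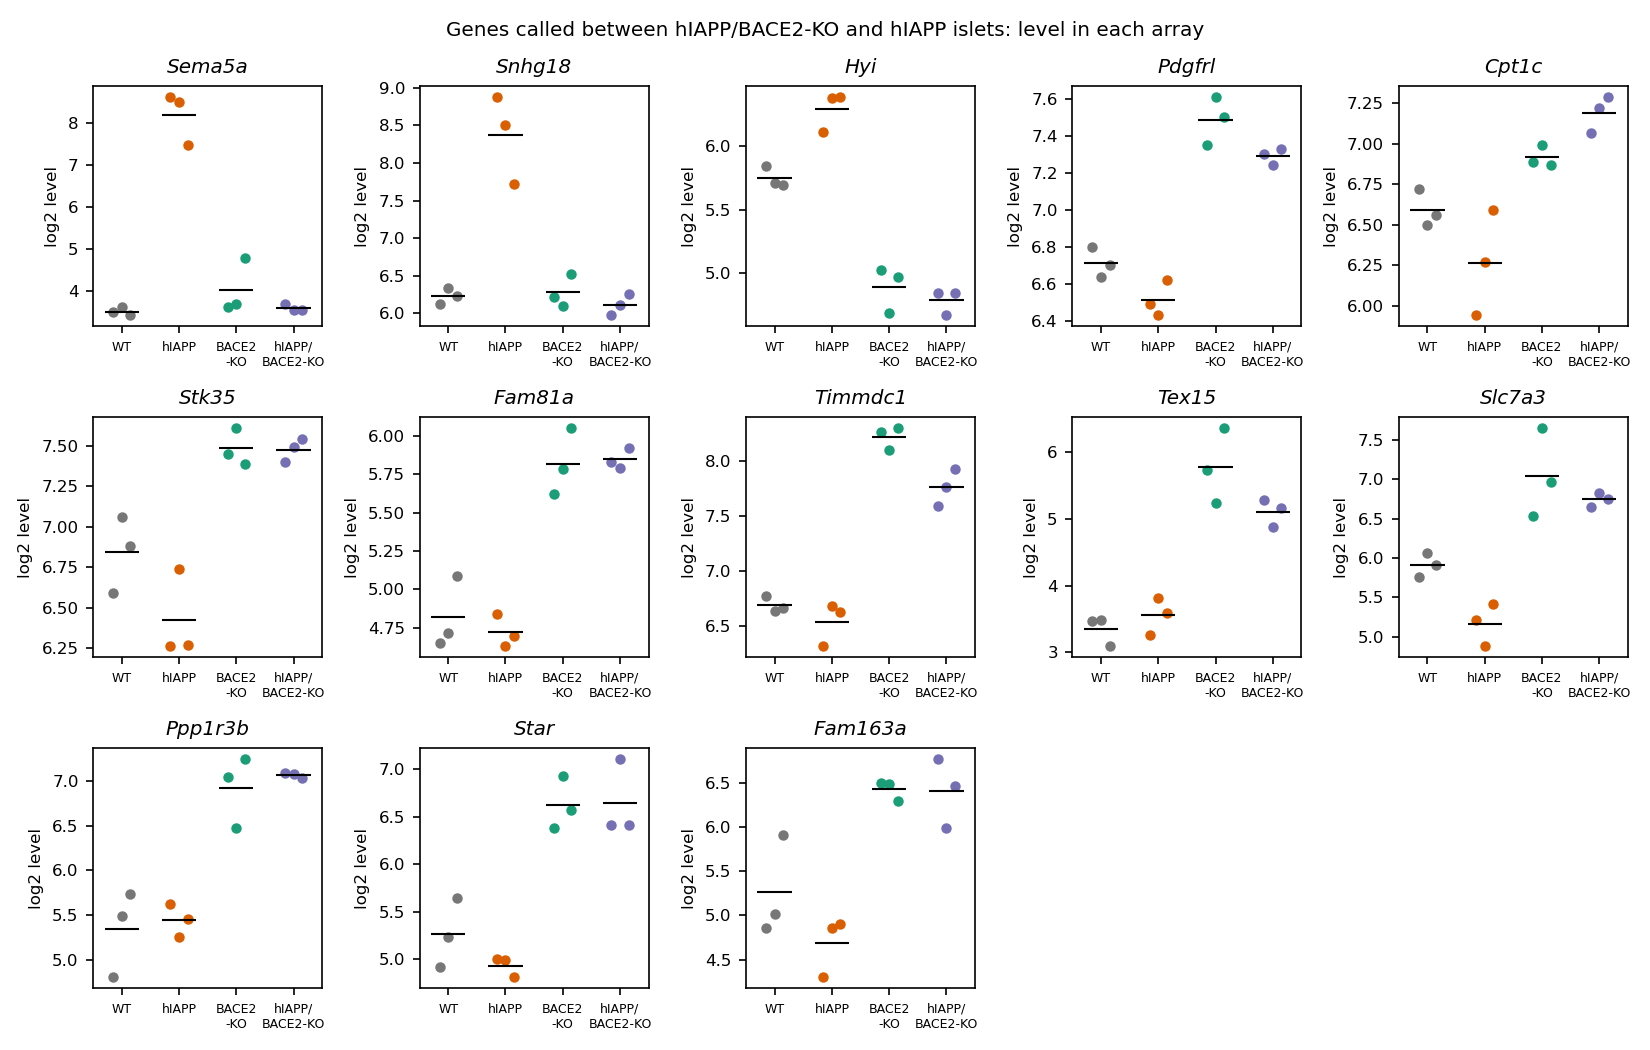
Log2 level of the 13 called genes on each of the 12 arrays; points are arrays, in the order of replicates 1 to 3 from left to right, bars are group means, and the y axis differs between panels. Sema5a and Snhg18 are high on the hIAPP arrays alone, whereas Timmdc1, Ppp1r3b, Star and Fam81a are higher in both groups without BACE2.

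Star, Pdgfrl, Ppp1r3b and Tex15 lie on chromosome 8 and are all the genes called there by limma. The share of tested genes that lie on that chromosome was not counted. The stretch between the outermost of these 4 holds 50 other tested genes, which by this choice could include no call. In it 4 genes were higher and 5 lower at an unadjusted p under 0.05, which is 18% against 8.37% over all genes, and the median difference was 0.04.

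The same loss of BACE2 was measured without the transgene in BACE2-KO against WT islets, a comparison with no array in common with the main one. The limma test called 16 genes there (0.125%). Of the 13 genes called with the transgene, 7 were called in both, all in the same direction, which is 7 of 13 and 7 of 16. In 10 of the 13 the unadjusted p was under 0.05 there with the same direction, against 6.28% of all genes in either direction. Timmdc1 differed by 1.53 without the transgene (adjusted p = 0.000292), Tex15 by 2.42, Ppp1r3b by 1.59, Star by 1.36, Fam81a by 1, Pdgfrl by 0.77 and Hyi by -0.86 (adjusted p from 0.0015 to 0.0462 for these 6). Slc7a3 (1.13), Fam163a (1.16), Stk35 (0.64) and Cpt1c (0.32) also lay above 0 but were not called there (adjusted p from 0.171 to 0.797). Both comparisons were made in a single fit and share its estimate of each gene's spread.

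Whether the difference with BACE2 loss itself differed between islets with and without the transgene was tested as an interaction. The limma test called 1 gene (0.0078%), while 308 (2.4%) had an unadjusted p under 0.05. That gene was Sema5a, which differed by -4.59 with the transgene and 0.52 without it, an interaction of -5.11 (SE 0.45, adjusted p = 0.000722). Its level in WT was near the filter level of 3.43, so a fall without the transgene could hardly be seen. For Snhg18 the values were -2.26 and 0.05, and its interaction of -2.31 (SE 0.33) did not pass (adjusted p = 0.0705). Hyi (-0.65), Tex15 (-0.87) and Cpt1c (0.60) had an unadjusted p under 0.05 for the interaction and an adjusted p of 0.9995 (limma). For Pdgfrl (0.003, unadjusted p = 0.983) and Ppp1r3b (0.04, unadjusted p = 0.899) the estimates were close to 0. A p above the threshold does not show that the differences are the same.

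**Figure D3:**
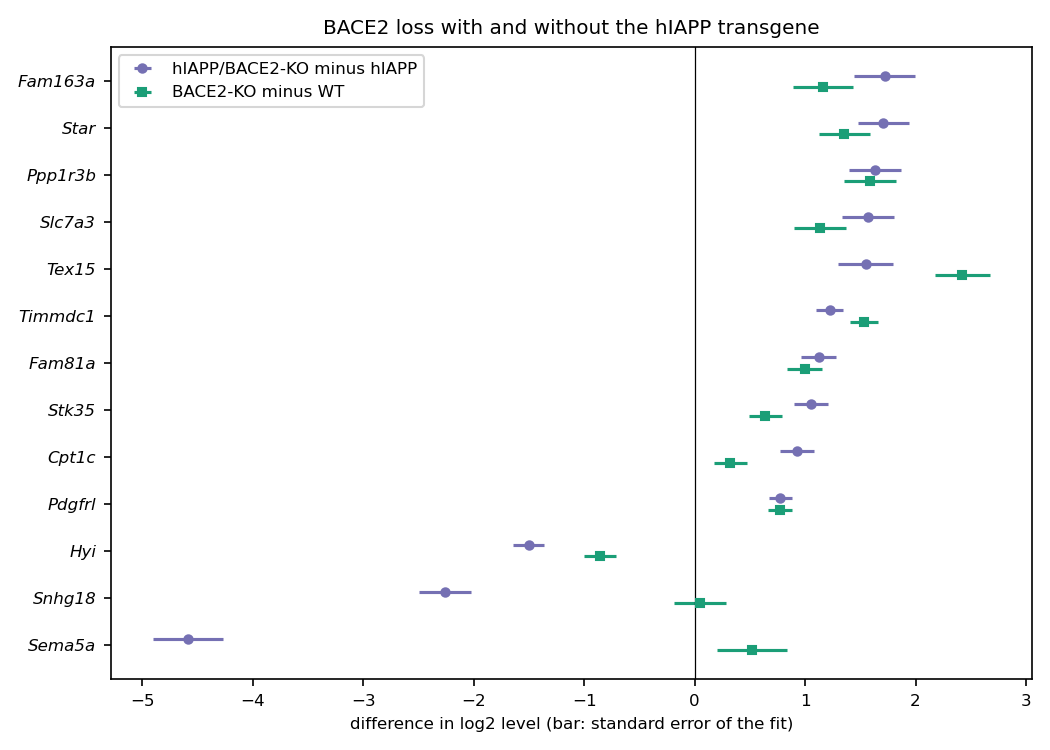
Difference in log2 level with BACE2 loss for the 13 called genes, with the transgene (circles, hIAPP/BACE2-KO minus hIAPP) and without it (squares, BACE2-KO minus WT); bars are the standard error of the fit. Both marks lie on the same side of 0 for 11 genes, and Sema5a and Snhg18 are the exceptions.

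The 10 genes next in line by p had adjusted p from 0.0516 to 0.0619 and were not called. Those with negative differences were Slco1a6, an organic anion carrier (-0.67), Abcb10, a transporter of the inner mitochondrial membrane (-0.83), Abcg1, a cholesterol exporter (-0.37), Galc, the lysosomal galactosylceramidase (-1.16), and Rab3b, a small GTPase of secretory vesicles (-0.96). Those with positive differences were Trub2, a pseudouridine synthase of mitochondria (0.73), Hacd2, of very long chain fatty acid synthesis (0.41), the carboxypeptidase gene Scpep1 (0.89), Frg1 (0.47) and Echdc2 (1.32). The arrays of both groups did not overlap in any of these 10 genes, against 11.1% of all genes, but they were picked for their small p. Abcg1, for example, read 9.93, 9.92 and 10 with BACE2 and 9.54, 9.58 and 9.61 without it. Galc read 7.77, 8.08 and 7.81 against 6.47, 6.93 and 6.79. On its other probe sets, which lay near or under the filter level, Galc differed by 0.12 and -0.08.

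Genes of the PERK-ATF4 arm were mostly higher without BACE2. In this arm of the unfolded protein response the kinase PERK slows translation, and ATF4 then raises genes for amino acid synthesis, transport and redox balance. Of 35 genes in the list, 32 were tested, and 29 lay above 0 and 3 below, with a median of 0.22 against 0.03 over all genes. Slc7a3 was called, and 11 members (34.4%), all higher, had an unadjusted p under 0.05, against 5.03% of all genes. In 9 members the arrays did not overlap, all higher, against 6.56% of all genes. All lists were chosen with earlier results of these data known. No list was tested as a whole, and no direction is read from medians under 0.10 in size. The list mean was 8.09, 8.32 and 8.37 on the hIAPP arrays and 8.37, 8.68 and 8.67 on the hIAPP/BACE2-KO arrays. These means overlapped, since hIAPP replicate 3 (8.3725) lay above hIAPP/BACE2-KO replicate 1 (8.3681). Replicate 1 was the lowest in each group, also in WT and BACE2-KO. Leaving out replicate 1 of a single group keeps the low array of the other. Without hIAPP replicate 1 the median was 0.10, and without hIAPP/BACE2-KO replicate 1 it was 0.33. In BACE2-KO against WT 31 of the 32 lay above 0, with a median of 0.30.

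Several enzymes that make amino acids were among the leading members by p. Cth, which makes cysteine from cystathionine, read 4.55, 3.86 and 4.34 with BACE2 and 5.08, 5.02 and 5.29 without it. Psph, the last enzyme of serine synthesis, read 8.34, 8.62 and 8.63 against 9.21, 9.19 and 9.24, and Psat1, the enzyme before it, read 8, 8.45 and 8.41 against 8.90, 8.93 and 9.20. The groups did not overlap in any of them, against 6.56% higher over all genes, but they were named for their small p. Their differences were 0.88, 0.68 and 0.72, and none passed (adjusted p from 0.368 to 0.475). Of the stress genes, Trib3, a pseudokinase that ATF4 induces, read 7.24, 7.77 and 7.67 against 7.96, 8.58 and 8.68, a difference of 0.85 (SE 0.32, adjusted p = 0.471). Chac1, which breaks down glutathione, differed by 0.47, Eif4ebp1, a brake on translation, by 0.33, and the lipoprotein receptor gene Vldlr by 0.25 (adjusted p from 0.509 to 0.557).

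**Figure D4:**
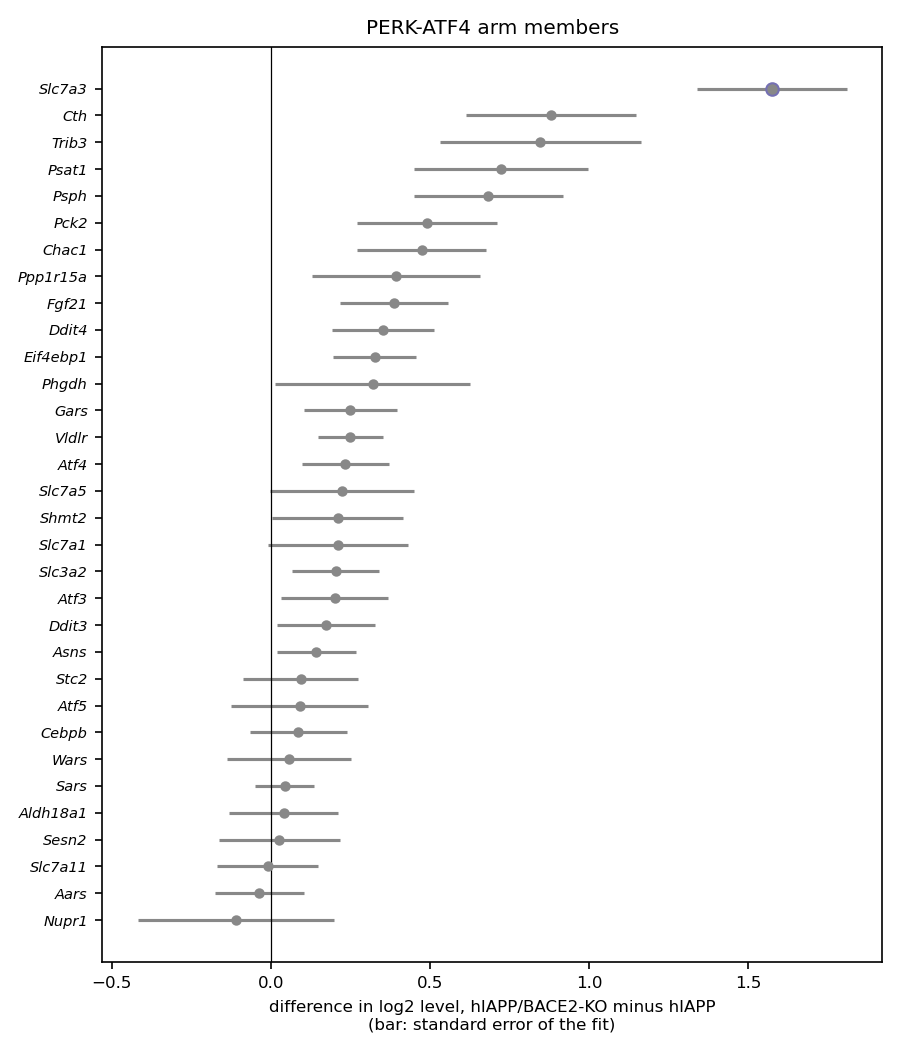
Difference in log2 level, hIAPP/BACE2-KO minus hIAPP, for the 32 tested members of the PERK-ATF4 list. Bars are the standard error of the fit, and the larger coloured point is the called gene. Slc7a3 stands at 1.57, and 29 of the 32 points lie to the right of 0.

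ATF4 binds, with a partner of the C/EBP family, to elements written as TGATGNAA, or TTNCATCA on the other strand. These letters were searched on both strands of the RefSeq promoter windows (GRCm38.p6, 250 bases before to 50 after the start). They were present for 11 of the 27 tested PERK-ATF4 members with a window (40.7%), 294 of 10334 tested genes with a window (2.84%), 4.51% of all genes of the table and 0 of the 7 called genes with a window. The list was drawn up from known ATF4 targets, so this share describes its members and is no result about BACE2. The windows of Psph (chr5:129787204-129787503, minus strand), Trib3 (chr2:152344011-152344310, minus strand) and Chac1 (chr2:119350992-119351291, plus strand) are shown, each read along its gene; capitals mark the letters. Psph was among the members with the smallest p, and Trib3 and Chac1 were chosen after the search because they hold the letters.
Psph: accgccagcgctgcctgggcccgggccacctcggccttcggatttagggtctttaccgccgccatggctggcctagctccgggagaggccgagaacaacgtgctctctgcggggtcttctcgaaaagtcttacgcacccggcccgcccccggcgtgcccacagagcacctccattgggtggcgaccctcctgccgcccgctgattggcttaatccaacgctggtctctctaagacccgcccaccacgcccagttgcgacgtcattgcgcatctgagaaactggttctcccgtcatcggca
Trib3: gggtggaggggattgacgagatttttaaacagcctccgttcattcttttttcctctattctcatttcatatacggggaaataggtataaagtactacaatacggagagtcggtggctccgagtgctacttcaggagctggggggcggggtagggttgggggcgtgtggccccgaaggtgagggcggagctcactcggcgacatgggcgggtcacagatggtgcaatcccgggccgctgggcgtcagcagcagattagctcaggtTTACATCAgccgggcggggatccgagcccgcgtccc
Chac1: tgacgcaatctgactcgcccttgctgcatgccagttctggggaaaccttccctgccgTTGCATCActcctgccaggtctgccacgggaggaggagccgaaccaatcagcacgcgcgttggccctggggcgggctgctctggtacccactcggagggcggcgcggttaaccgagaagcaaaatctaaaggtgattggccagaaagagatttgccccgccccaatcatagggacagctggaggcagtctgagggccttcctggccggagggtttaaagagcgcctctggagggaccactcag
In Trib3 the match begins 14 bases after the start, and in Chac1 it begins at -193, while the window of Psph holds no match. A match is a run of letters and was not tested as a binding site.

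Amino acid carriers other than Slc7a3 did not pass. Of 24 tested genes of a list of 30, 18 lay above 0 and 6 below, the median was 0.12, and 5 (20.8%), all higher, had an unadjusted p under 0.05, against 5.03% of all genes. Besides Slc7a3 these were Slc7a8 (0.67), which carries large neutral amino acids, the glycine carrier Slc6a9 (0.63), Slc7a6 (0.32) and the glutamine carrier Slc38a2 (0.30). Slc7a6 read 7.06, 7.01 and 6.96 with BACE2 and 7.27, 7.35 and 7.38 without it, with no overlap. It was named for its small p, and 6.56% of all genes were higher without overlap. Slc7a8 overlapped, with hIAPP replicate 1 at 6.72, below 7.65 and 7.63 in its group. The median was 0.01 without hIAPP replicate 1, 0.20 without hIAPP/BACE2-KO replicate 1 and 0.08 without replicate 3 of that group.

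The other branches of the unfolded protein response held no called gene. Of 31 genes of the ATF6 and IRE1-XBP1 arms, which raise chaperones and the machinery that degrades misfolded proteins, 21 lay above 0 and 10 below. The median was 0.07, limma called none, and 2 were higher and 1 lower at an unadjusted p under 0.05 (9.68%, against 8.37% of all genes). Whether they differed from the PERK-ATF4 genes was not tested. Pdia3, a protein disulfide isomerase, differed by -0.52, with 5.43, 5.90 and 5.69 against 5.36, 4.91 and 5.18, and the retrotranslocation gene Derl1 by 0.23. The median was -0.03 without hIAPP replicate 1, so no direction is read from it. Of 14 heat shock genes 12 lay above 0, with a median of 0.07 and 3 (21.4%) higher at an unadjusted p under 0.05, against 5.03% of all genes. Hspb8, a small heat shock protein, read 7.04, 6.29 and 6.45 against 7.24, 7.17 and 7.21, a difference of 0.61 (SE 0.18, adjusted p = 0.348). The median of this list was 0.13 without hIAPP/BACE2-KO replicate 1.

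Among 20 antioxidant genes, many of them targets of the factor NRF2, the malic enzyme gene Me1 differed by 0.29 and the sulfiredoxin gene Srxn1 by 0.38 (adjusted p = 0.275 and 0.276). Srxn1 read 8.51, 8.59 and 8.72 against 9.04, 9.02 and 8.91, with no overlap. It was named for its small p, and 6.56% of all genes were higher without overlap. Over that list 13 lay above 0 and 7 below, the median was 0.04, and it was -0.002 with arrays centred on their medians. Of 23 apoptosis genes and p53 targets 14 lay above 0, with a median of 0.13 (0.06 without hIAPP/BACE2-KO replicate 2). Cdkn1a, the cell cycle inhibitor p21, read 8.18, 8.16 and 8.38 with BACE2 and 8.59, 9.28 and 8.83 without it, a difference of 0.66 (SE 0.17, adjusted p = 0.269). Phlda3, another p53 target, differed by 0.80 and the death agonist gene Bid by -0.42. For Cdkn1a and Phlda3 the highest value was that of replicate 2 of hIAPP/BACE2-KO.

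The metabolic lists each held 1 called gene, against 0.101% of all genes, but they were chosen with earlier results of these data known. These calls are therefore no result about the lists. Complex I assembly and oxidative phosphorylation genes had a median of 0.01 over 29 tested, with 17 above 0 and 12 below. Timmdc1 was the gene called, while the assembly factor Ndufaf1 differed by 0.28 and the succinate dehydrogenase subunit gene Sdha by -0.17. Of 18 genes of cholesterol synthesis and steroid transport 12 lay above 0 and 5 below, with a median of 0.05, and Star was the 1 called. Fatty acid genes had a median of 0.05 over 16, with Cpt1c called. Glycolysis, glycogen and hypoxia genes had 17 of 24 above 0 and a median of 0.15, which was 0.01 without hIAPP replicate 3, 0.25 without hIAPP replicate 2, then 0.26 when hIAPP/BACE2-KO replicate 1 was left out and 0.09 when replicate 3 of that group was. Besides Ppp1r3b, the glycogen phosphorylase gene Pygb read 6.02, 6.05 and 6.39 against 6.53, 6.94 and 7.12, a difference of 0.71 (SE 0.16, adjusted p = 0.186). Ppp1r3d, another glycogen-targeting subunit, differed by -0.39.

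**Figure D5:**
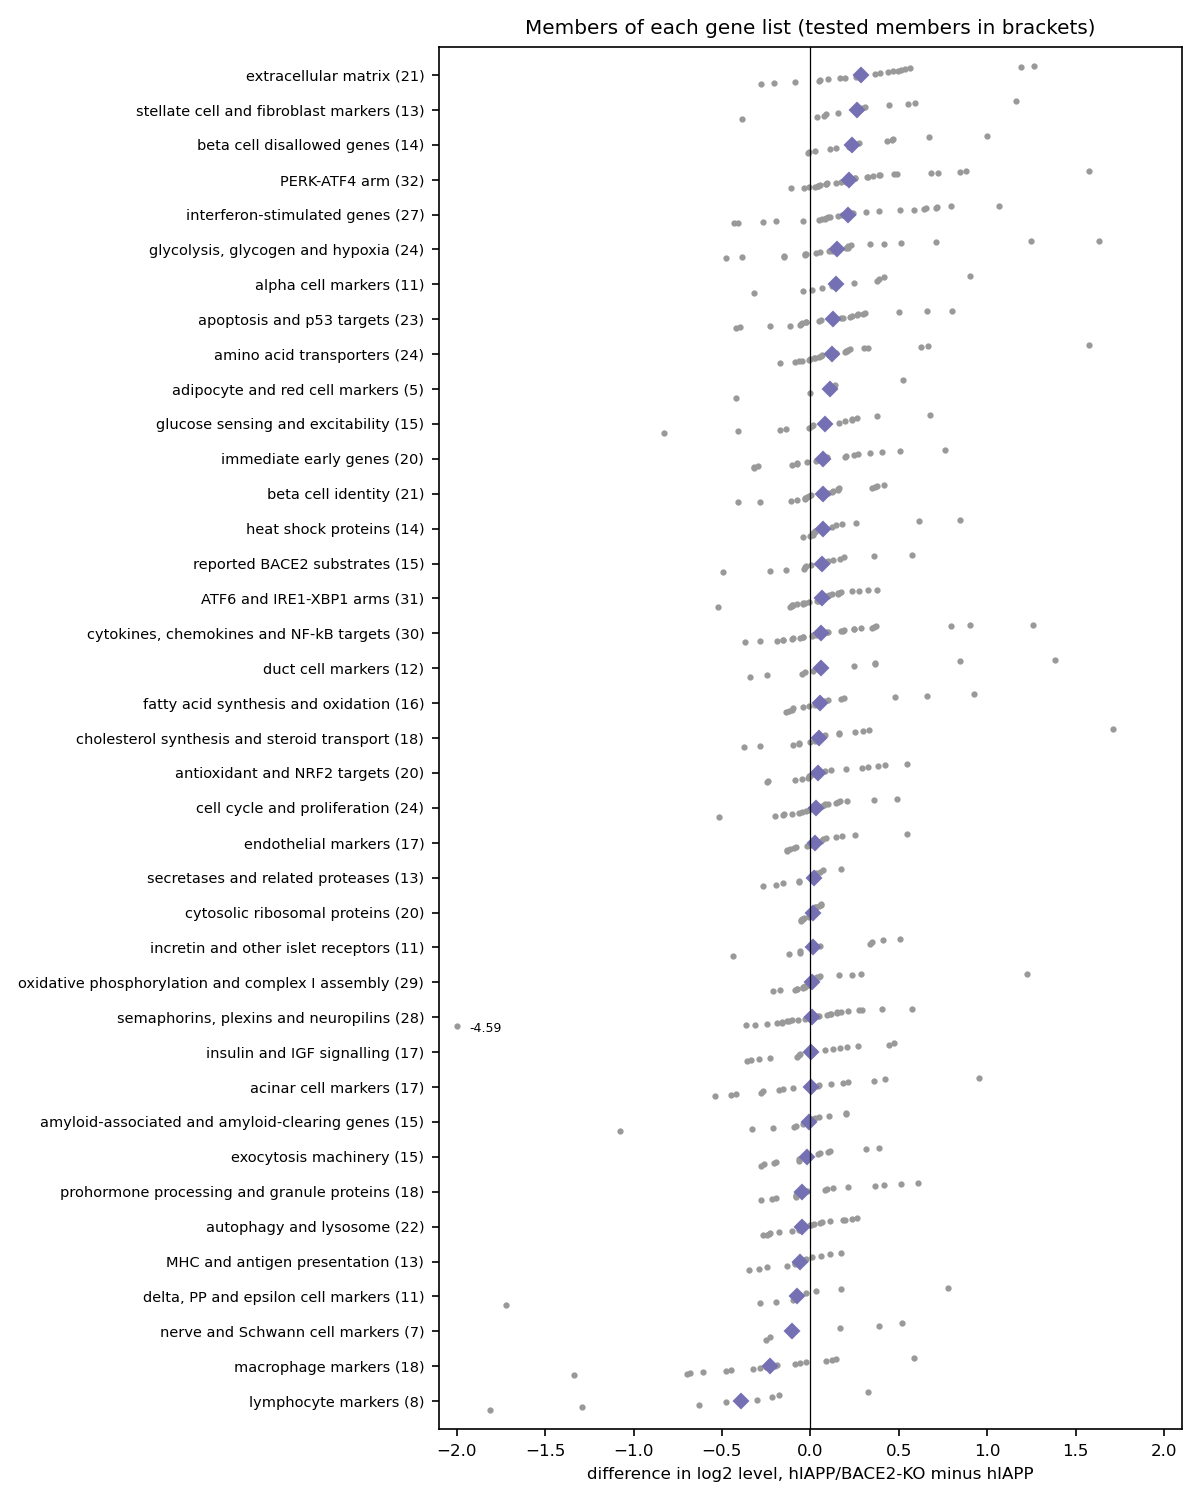
Difference in log2 level, hIAPP/BACE2-KO minus hIAPP, for every tested member of 39 gene lists; grey points are genes, diamonds are list medians, and the Sema5a point is drawn at the left edge with its value of -4.59. Medians run from -0.39 (lymphocyte markers) to 0.29 (extracellular matrix).

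Beta cell identity genes showed no common direction. Of 21 tested, 13 lay above 0 and 8 below, with a median of 0.07 that was -0.03 without hIAPP replicate 1 and 0.20 without hIAPP replicate 3. Ins2 differed by 0.00 and Gcg by 0.01, at the top of the scale, where a difference is hardly resolved. Sytl4, a granule docking protein, read 10.43, 10.75 and 11.07 against 11.21, 11.13 and 11.16, a difference of 0.42 (adjusted p = 0.361). Pcsk1, which cuts proinsulin, differed by 0.36, and Abcc8, the sulfonylurea receptor of the ATP-sensitive potassium channel, by -0.41. Genes that beta cells keep low (the disallowed genes) had 12 of 14 above 0 and a median of 0.23. Of these Igfbp4, an IGF-binding protein, read 7.14, 6.71 and 6.83 against 7.92, 7.85 and 7.90, a difference of 1 (SE 0.22, adjusted p = 0.176), and Ndrg2 differed by 0.47. That median ran from 0.15 to 0.33, the lowest without hIAPP/BACE2-KO replicate 2.

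The secretory machinery was near 0 as lists. Prohormone processing and granule genes had a median of -0.045 over 18 and exocytosis genes -0.02 over 15, and neither kept its sign when each array was left out in turn. Pam, which amidates peptide hormones including amyloid polypeptide, read 9.76, 10.05 and 9.99 against 9.90, 10.92 and 10.81, a difference of 0.61 with overlap. The calcium sensor gene Doc2b differed by 0.39, and the Rab effector gene Rph3al by -0.28. Of 15 genes of glucose sensing and excitability, the sodium channel gene Scn3a read 7.77, 7.55 and 7.14 with BACE2 and 6.69, 6.50 and 6.78 without it, a difference of -0.83 (SE 0.17, adjusted p = 0.146). Trpm5, a cation channel that supports insulin release, read 8.39, 8.91 and 9.17 against 9.49, 9.51 and 9.50, a difference of 0.68 (adjusted p = 0.245). Both genes were apart between the groups, against 11.1% of all genes, but they were named for their small p. Mrap2, an accessory protein of melanocortin and ghrelin receptors, differed by -0.44 with the transgene and by -1.01 without it. Its mean levels without BACE2 (3.44 in hIAPP/BACE2-KO and 3.31 in BACE2-KO islets) were near the filter level, so neither size is resolved.

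Other endocrine cells gave 1 large value. Ghrl, the ghrelin gene of epsilon cells, read 5.23, 4.43 and 5.43 with BACE2 and 3.61, 2.93 and 3.39 without it. The difference was -1.72 (SE 0.37, limma adjusted p = 0.166). The groups did not overlap, against 4.57% of all genes lower, but Ghrl was named for its small p. It differed by -2.60 in BACE2-KO against WT, where it was called (adjusted p = 0.0193). Levels without BACE2 were near or under the filter level, so neither size is resolved. In whole islets, fewer cells of a type and less RNA per cell cannot be told apart. Delta, PP and epsilon markers had 3 of 11 above 0 and a median of -0.08, which was 0.01 without hIAPP/BACE2-KO replicate 1. Alpha cell markers had 9 of 11 above 0 and a median of 0.15, with the factor Irx1 at 0.90 (4.64, 5.50 and 5.27 against 5.90, 5.89 and 6.33), but the median was -0.02 without hIAPP replicate 1, 0.25 without hIAPP replicate 3, 0.29 when hIAPP/BACE2-KO replicate 2 was left out and 0.05 when replicate 3 was.

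Markers of macrophages and lymphocytes were mostly lower. Of 18 macrophage markers tested, 4 lay above 0 and 14 below, with a median of -0.23. Lyz2, lysozyme, read 8.76, 8.25 and 8.47 with BACE2 and 6.23, 8.01 and 7.23 without it, a difference of -1.34 (SE 0.33, adjusted p = 0.246). The groups did not overlap, but hIAPP/BACE2-KO replicate 2 lay close to the hIAPP arrays. Lyz2 was named for its small p, and 4.57% of all genes were lower without overlap. WT arrays read 6.61, 6.73 and 6.71. C1qa, a complement component, differed by -0.45. Means over the list were 6.30, 5.86 and 6.12 on the hIAPP arrays and 5.38, 6.36 and 5.75 on the hIAPP/BACE2-KO arrays and overlapped. Leaving out hIAPP/BACE2-KO replicate 1 gave a median of -0.04. It was -0.15 and -0.48 without replicates 3 and 2 of that group, and -0.10 and -0.41 without hIAPP replicates 1 and 2. Of 8 lymphocyte markers tested, 7 lay below 0, with a median of -0.39 that was -0.11 without hIAPP replicate 3. Cd79a, of the B cell receptor, read 4.98, 4.71 and 4.75 against 4.48, 4.27 and 4.26, a difference of -0.48, while Cd4 differed by 0.32.

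Genes that interferon induces had 22 of 27 above 0 and a median of 0.21. None was called by limma, 2 (7.41%, against 8.37% of all genes) had an unadjusted p under 0.05, both higher, and in 7 the arrays did not overlap, all higher, against 6.56% of all genes. Mx1, an antiviral GTPase, read 5.18, 4.40 and 4.75 with BACE2 and 5.57, 5.20 and 5.69 without it, a difference of 0.71 (SE 0.21, adjusted p = 0.348). Mx1 is also the nearest tested gene after Bace2 on chromosome 16, and Mx2, another list member (0.39), lies near it too. Whether this position plays a part was not tested. Rsad2 read 8.56, 8.66 and 8.65 against 9.22, 9.15 and 9.46, a difference of 0.65 (adjusted p = 0.496). List means were 7.44, 6.83 and 6.77 against 7.14, 7.37 and 7.28, with hIAPP replicate 1 the highest of all. The median was 0.43 without that array, 0.34 without hIAPP/BACE2-KO replicate 1, and 0.07 and 0.06 without hIAPP replicate 3 and hIAPP/BACE2-KO replicate 2. In BACE2-KO against WT 7 of the 27 lay above 0 and the median was -0.18. MHC and antigen presentation genes had 4 of 13 above 0, with a median of -0.06 that ran from -0.15 to -0.01 as arrays were left out. Cytokine, chemokine and NF-kB genes had 20 of 30 above 0 and a median of 0.06. That median was -0.08 without hIAPP replicate 2 and 0.28 without hIAPP replicate 1.

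Extracellular matrix genes had 18 of 21 above 0 and a median of 0.29, and stellate cell and fibroblast markers 12 of 13 and 0.26. None of either list was called by limma, and 1 in each (4.76% and 7.69%, against 8.37% of all genes) had an unadjusted p under 0.05. These were the laminin gene Lamc1 (0.49; 5.39, 5.76 and 5.86 against 5.93, 6.47 and 6.09) and the muscle filament gene Des (-0.39; 4.97, 4.92 and 5.22 against 4.53, 4.58 and 4.84). Replicate 2 of hIAPP/BACE2-KO had the highest mean in both lists, 7.35 against 6.35 and 6.45 in its group for matrix genes and 6.66 against 5.92 and 6.06 for stellate markers. Without it the medians were 0.06 and 0.10. They were 0.44 and 0.39 without replicate 1 of that group, and the stellate median was 0.17 without hIAPP replicate 3. In BACE2-KO against WT 3 of the 21 matrix genes and 5 of the 13 stellate markers lay above 0.

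No exocrine or vessel marker was called by limma. Acinar markers had 9 of 17 above 0 and a median of 0.00 (-0.04 with arrays centred on their medians), with 0 at an unadjusted p under 0.05 and 0 called by limma. That median ran from -0.20 without hIAPP replicate 2 to 0.12 when hIAPP/BACE2-KO replicate 3 was left out, and was -0.14 when replicate 2 of that group was, so no direction is read from it. Their means were 9.90, 9.05 and 9.78 against 9.89, 9.82 and 9.02, so each group held 1 low array, and with this mean as a covariate the count of called genes was 16, which included 12 of the 13. Duct markers had 8 of 12 above 0, with a median of 0.06 that was -0.04 without hIAPP replicate 2 and 0.32 without hIAPP replicate 1. Krt19, a duct keratin, read 7.09, 5.80 and 6.66 against 7.46, 8.96 and 7.28, a difference of 1.38 (SE 0.59, adjusted p = 0.553), with replicate 2 of hIAPP/BACE2-KO the highest. Endothelial markers had a median of 0.03, with the clotting factor gene Vwf at 0.54. The part of these cells in the results above was not tested beyond the values given.

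Amyloid and its processing were read through 3 further lists, none of which held a called gene. Genes found in amyloid deposits or known to clear them had 6 of 15 above 0 and a median of -0.01, which was -0.11 without hIAPP/BACE2-KO replicate 2. Apoe, an apolipoprotein of amyloid deposits, read 9.33, 8.73 and 8.53 with BACE2 and 6.98, 8.66 and 7.72 without it. It differed by -1.08 (SE 0.41, adjusted p = 0.48), with overlap, and hIAPP/BACE2-KO replicate 2 was again near the hIAPP arrays. In WT islets Apoe read 6.87, 6.85 and 6.73. Gsn, which encodes the actin-severing protein gelsolin, differed by -0.33 (10.05, 10.11 and 10.18 against 9.56, 9.87 and 9.92). Its groups did not overlap, against 4.57% of all genes lower, but it was named for its small p. Secretases and related proteases had a median of 0.02 over 13, and Ctsd, the lysosomal protease cathepsin D, read 9.95, 9.96 and 10.11 against 9.65, 9.83 and 9.74, a difference of -0.27 (SE 0.07, adjusted p = 0.313). Lamp1 (-0.18) and Lamp2 (-0.24), membrane proteins of the lysosome, lay lower too, in a list of autophagy and lysosome genes with 9 of 22 above 0 and a median of -0.05 (-0.01 without hIAPP/BACE2-KO replicate 2).

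Reported substrates of BACE2 had 9 of 15 above 0 and a median of 0.07, which was 0.00 without hIAPP replicate 1 and 0.01 when hIAPP/BACE2-KO replicate 3 was left out. Sez6l, a neuronal membrane protein, read 9.08, 9.00 and 8.92 against 8.38, 8.70 and 8.44, a difference of -0.49 (SE 0.18, adjusted p = 0.471). Plxna3, a semaphorin receptor, read 4.41, 4.35 and 4.96 against 4.97, 5.19 and 5.29, a difference of 0.58 (adjusted p = 0.471), and the growth factor receptor gene Fgfr1 differed by 0.36. The groups did not overlap in any of these genes, against 11.1% of all genes, but they were named for their small p. Semaphorins, plexins and neuropilins other than Sema5a were not called, and with it 14 of 28 lay above 0, with a median of 0.01. Sema6c differed by -0.37 and Sema3g by 0.40.

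The remaining lists held no gene called by limma. Immediate early genes had 13 of 20 above 0 and a median of 0.07, which was 0.28 without hIAPP/BACE2-KO replicate 1 and -0.12 without replicate 2. Klf4 differed by 0.51 and Nr4a1 by 0.41, with no overlap. Both were named for their small p, and 6.56% of all genes were higher without overlap. Cell cycle genes had a median of 0.03 over 24, with the replication helicase gene Mcm6 at -0.52 (7.45, 7.18 and 7.69 against 7.02, 6.84 and 6.91), which was -0.90 and called in BACE2-KO against WT. Insulin and IGF signalling genes had a median of 0.00 over 17, with Irs1, the insulin receptor substrate, at -0.36. Islet receptor genes had a median of 0.01 over 11, nerve and Schwann cell markers -0.11 over 7, and adipocyte and red cell markers 0.11 over 5. Neither of the latter kept its sign, since the nerve median was 0.09 without hIAPP replicate 1 and the adipocyte and red cell median -0.16 when hIAPP/BACE2-KO replicate 1 was left out. Ribosomal protein genes had a median of 0.01 over 20, with differences from -0.05 to 0.06.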

How the data were processed

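Per the labels' protocols, Trizol-extracted islet RNA was labelled as biotinylated cRNA and hybridised to Affymetrix mouse arrays. The authors deposited log2 expression values for 45141 probe sets on 12 arrays, made with RMA and affy per the submitters' processing notes; the sources used here give no versions and no genome build. RMA normalizes the arrays to a common scale, and array medians ran from 4.22 to 4.35. No array was a copy of another (at most 2.22% equal values). Arrays hold no read depth, so their number limits the precision.

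The platform annotation gave 1 symbol for 28898 probe sets, several for 551 and none for 15692; only the first were named. Iapp and Ins1 were not analysed here. For a gene with several probe sets, that of highest mean was used, and genes below the 25th percentile of mean level (3.43) were dropped. A limma 3.58.1 model (R 4.3.3) with a mean per group, fitted to all 12 arrays, with eBayes and a variance trend, gave two-sided Benjamini-Hochberg adjusted p-values over all genes tested, and a gene was called under 0.05. The steps were tested on simulated data. Plots used matplotlib 3.10.9 in Python 3.11.15. Promoter windows and gene order came from RefSeq (GRCm38.p6).

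The genes compared and the 39 lists were chosen with earlier results of these data known. Genes were named by a rule: Bace2, Ins2 and Gcg, every called gene, the 10 next by p, and in each list up to 4 members (8 in the PERK-ATF4, amino acid transporter and complex I lists) with the smallest p. Marker genes given as checks of the tissue and of arrays that stand apart fall outside it. Alternatives covered the filter, the probe set, normalization, the variance model, the arrays in the fit, array weights, the replicate number as a block, an acinar covariate, the threshold and each array left out.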

Additional observations from a re-analysis of the deposited data

Results flagged for a closer look

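The difference in Sema5a with BACE2 loss itself differed between islets with and without the transgene, by a test of that difference. Sema5a was high in hIAPP islets (8.61, 8.49 and 7.47) and low in hIAPP/BACE2-KO islets (3.70, 3.55 and 3.55). It was also low in WT (3.5, 3.62 and 3.43) and in BACE2-KO islets (3.62, 3.69 and 4.79). WT levels were near the filter level of 3.43, so a fall without the transgene could hardly be seen. The test thus reflects high levels on the hIAPP arrays alone. The interaction was -5.11 (SE 0.45, limma adjusted p = 0.000722).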

How the results depend on the processing

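The 13 calls between hIAPP/BACE2-KO and hIAPP became 24 with the probe set of largest variance, 24 with arrays centred on their medians, 3 in a fit of only the arrays compared, 29 with the replicate block, 27 at an adjusted p under 0.10, and from 4 to 17 as arrays were left out. The interaction called 1 gene, but 0 with the filter at the 50th percentile, where Sema5a was left out, 2 with the probe set of largest variance, with robust eBayes and at the looser threshold, and from 1 to 2 as arrays were left out. BACE2-KO against WT called 16 genes, but 6 with the filter at the 50th percentile, 9 in a fit of only its arrays, 36 with array weights and from 5 to 16 as arrays were left out. For these counts the cause was not tested except where named. All 13 called genes kept their direction in each of 308 values compared, and 229 were past the threshold. Reversed values were those of Rph3al (0.063) and Aph1b (0.04) with the probe set of largest variance, the difference of Ins2 with quantile normalization (0), centring (-0.04) and array weights (-0.014), and Gcg with centring (-0.037). As arrays were left out Ins2 ran from -0.015 to 0.025 and Gcg from -0.032 to 0.048. Of 936 list medians compared, 918 moved by less than the spread between arrays. For many lists that spread was larger than the median (0.19 against 0.15 for alpha cell markers), so a median could change sign and still count here. The replicate numbers were not taken as pairs, since same-numbered arrays of both groups deviated together in numbers 1 and 3 (correlations 0.37 and 0.29) and not in 2 (-0.06), and hIAPP replicate 2 correlated best with replicate 3. Over all pairs of the 4 groups these correlations ran from 0.09 to 0.37 for number 1. They ran from -0.13 to 0.14 for number 2 and from -0.09 to 0.29 for number 3. Whether a replicate number marks something shared was not tested. The replicate block kept all 13 calls. Signals near the filter level of 3.43 limit the size of differences in Sema5a, Tex15 and Ghrl. The same holds for other genes named, among them Mrap2, Doc2b, Sema3g and Ndrg2.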
